A study of Mus musculus with 4 samples.

Results

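Mxd1, Mxi1, Max and Myc encode the core of a network of transcription factors that decides between growth and rest, and their signal was examined in inflammatory peritoneal cells of mice lacking C/EBPε. The genes were taken as those probe sets, the sets of oligonucleotides that each give 1 signal, whose platform annotation names exactly 1 gene symbol and that symbol is a member. This gave 5 probe sets of 13069, and 4 genes of 6137 named ones. The set was selected on measured values, since Mxd1 was picked for its low reading in deficient cells on these same arrays, so every genotype difference of the members is given as a description with no test.

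Total RNA of peritoneal cells was hybridised to 2 Affymetrix array types that hold different probe sets, called A and B here. The Cebpe-deficient group was C/EBPε -/- mice and the wild-type group C/EBPε +/+ mice, both of 129/SvEv x NIH Black Swiss background and aged 6 to 8 weeks. Mice of both groups had received 2 ml of 4% thioglycollate broth into the peritoneum, a sterile irritant that draws in neutrophils and then monocytes, and cells were collected by lavage 24 h later. The labels count 4 mice per genotype, and the text on how their cells were combined breaks off. Per the labels the cells were about 60% neutrophils, 30% monocytes and 7 to 10% lymphocytes in both genotypes. Each genotype had 1 array of each type, 4 arrays in all, so no difference has a replicate check and their number limits the precision. On B the deficient sample is known as such by its title alone. No probe set of Cebpe was analysed here, so the deletion was not checked on the arrays.

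MYC drives cell growth and division when it pairs with MAX and binds the E-box, a short DNA motif. MAX also pairs with MXD1 and MXI1, which bring the SIN3 corepressor and histone deacetylases to such sites and oppose MYC. MXD1 is known to appear as myeloid cells stop dividing and mature, and granulocyte precursors of mice without MXD1 leave the cell cycle late. C/EBPε acts at the late stages of granulocyte maturation. Because all partners depend on MAX, the balance among them is usually read from several members together.

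The promoter sequences of Mxd1, the gene with no level in deficient cells, and of Max, the shared partner with a level in both genotypes, are shown for comparison. They are RefSeq windows on GRCm38.p6 from 250 bases before to 50 bases after the transcript start, both on the minus strand, at chr6:86669110-86669409 for Mxd1 and chr12:76962199-76962498 for Max. Capitals mark the CCAAT box in Mxd1 and the E-box CACGTG in Max.
Mxd1: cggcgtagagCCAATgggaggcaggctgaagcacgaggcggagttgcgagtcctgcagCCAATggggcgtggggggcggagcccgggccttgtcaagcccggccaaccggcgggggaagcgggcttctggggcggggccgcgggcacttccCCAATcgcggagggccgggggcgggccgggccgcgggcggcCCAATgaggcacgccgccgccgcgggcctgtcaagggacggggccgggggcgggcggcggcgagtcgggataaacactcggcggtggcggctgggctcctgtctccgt
Max: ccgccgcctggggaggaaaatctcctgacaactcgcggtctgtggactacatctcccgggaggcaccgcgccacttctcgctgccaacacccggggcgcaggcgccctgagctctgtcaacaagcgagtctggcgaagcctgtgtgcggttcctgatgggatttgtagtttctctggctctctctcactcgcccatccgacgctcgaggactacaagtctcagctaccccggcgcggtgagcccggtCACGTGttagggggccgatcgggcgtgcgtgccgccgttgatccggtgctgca
Motifs were searched on both strands. Positions are distances from the first base of the windowed transcript, which lies inside the gene span given below and not at its end. The Mxd1 window held the CCAAT box at 4 places, starting at -240, -192, -99 and -58 from the transcript start, and 1.06% of the 32851 windows of this length hold 4 or more. It held the GC box GGGCGG at 6 places and no CACGTG. At least 1 GC box is held by 35.7% of windows, and 4 or more by 5.49%. TTNCNNAA, a loose form of the C/EBP consensus, occurred at -103 to -96, overlapping the third CCAAT box, and 40.7% of windows hold this motif. The Max window held 1 CACGTG across the start, from -3 to 2, a motif found in 7.15% of windows, and neither CCAAT nor TTNCNNAA. Mxi1 had 3 windows in the table and none held the E-box, the CCAAT box or the C/EBP consensus, while the GC box occurred 1, 4 and 4 times. These matches describe letters in a window and do not show binding.

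Mxd1 was below background in deficient cells and well above it in wild-type cells. Its probe set on type B read 63 in deficient cells, against 5724 in wild-type cells. The deficient reading lay below the signal floor of type B and the wild-type reading was 8.29 times that floor. The floor, 690.1 on B and 1036.5 on A, is the median of all probe sets of both arrays of a type, and a value at or below it was not taken as a level. Mxd1 was therefore at least 8.29-fold lower in deficient cells (log2 bound -3.05). In ranks, which need no scaling between arrays, it stood at percentile 30.4 of the deficient array and percentile 86.3 of the wild-type array. Mxd1 spans chr6:86647044-86669234.

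Probe sets of like brightness on B describe the surroundings of this reading, which chose the gene and so supports nothing further. There, 248 other probe sets had a wild-type signal within 0.25 log2 units of that of Mxd1, between 4814 and 6787. Their median deficient signal was 5566, and 0 of them were at or below the floor in deficient cells. That 0 depends on where the window ends, since just under it an unnamed probe set read 291 in deficient and 4809 in wild-type cells and another 157 in deficient and 4706 in wild-type cells. Among the 248 probe sets of B with a wild-type level and no deficient one, 1, which has no gene name in the annotation, had a lower bound than Mxd1 (-3.64). The 3 named genes of B closest to Mxd1 in their pair of values, each value set to the floor where below it, were Alas2, the erythroid enzyme of haem synthesis, Fosl2, an AP-1 factor, and Il1r2, the decoy receptor for interleukin 1. Alas2 read 539 in deficient and 4773 in wild-type cells, a distance of 0.26 log2 units over these 2 arrays. Fosl2 read 399 in deficient and 4295 in wild-type cells (0.41). Il1r2 read 903 in deficient and 4769 in wild-type cells (0.47).

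The size of the Mxd1 bound follows from where the floor is set. A floor at the 30th percentile of signals is 35.0 on B, where the deficient reading of 63 counts as a level and the log2 ratio was -6.51. At the 70th percentile, 2044 on B, the log2 bound was -1.49. Across 5 other ways of scaling the arrays the log2 bound lay between -3.10 and -2.92.

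**Figure D1:**
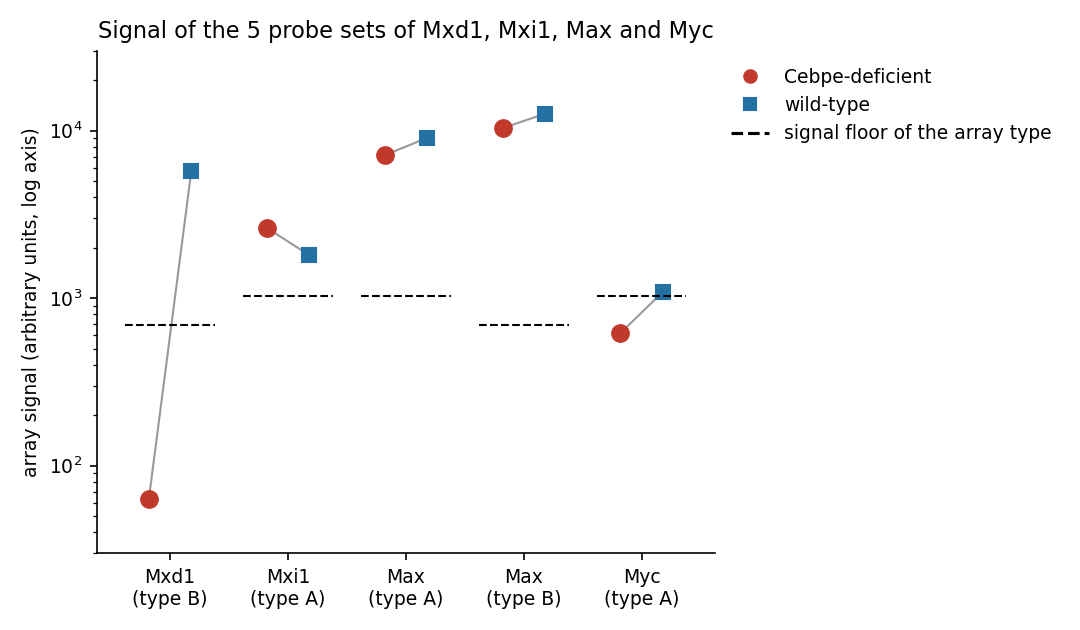
Signal of the 5 probe sets in deficient cells (red circles) and wild-type cells (blue squares), 1 array each, on a log axis in arbitrary units; dashed lines are the floor of the array type. Mxd1 reads 63 in deficient and 5724 in wild-type cells, while both Max probe sets stay far above their floors in both genotypes.

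Mxi1, the other MXD-type repressor among the members, was higher in deficient cells by 1 probe set. It read 2625 in deficient cells, against 1807 in wild-type cells, both above the floor of A. The log2 ratio was 0.54, or 1.45-fold higher. Repeat probe sets of the same gene disagreed with an SD of 0.38 log2 units (424 genes). The ratio of Mxi1 was 1.43 times this measurement error, an error that holds no spread between mice. Repeat probe sets can sit on the same arrays, so differences between arrays are not fully in it either. Of the 3580 probe sets of A with a ratio or a bound, 13.7% had a higher value than Mxi1. A floor at the 70th percentile lies above the wild-type reading and left a log2 bound of 0.037. Mxi1 lies at chr19:53310128-53373293. Closest to it in signal on A were Fgfr1op2 at 2643 in deficient and 1786 in wild-type cells, Atp7a, a copper transporter, at 2531 in deficient and 1783 in wild-type cells, and Fndc3a at 2527 in deficient and 1787 in wild-type cells. Their distances were 0.02, 0.06 and 0.06 log2 units over 2 arrays.

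Max, the partner that MYC, MXD1 and MXI1 all need, was bright in both genotypes and was measured on both array types. On A it read 7135 in deficient cells, against 9050 in wild-type cells, a log2 ratio of -0.34. On B it read 10340 in deficient cells, against 12629 in wild-type cells, a log2 ratio of -0.29. Both ratios were smaller than the measurement error, at 0.91 and 0.77 times its SD. The annotation ties both probe sets to the same sequence record, and their ratios differed by 0.05 log2 units. Among 129 genes with 1 measured probe set on each type the median difference was 0.33, and 17, Max included, differed by no more than Max did. Whether the same RNA was put on both types is not given in the sources used here, so the types are not counted as replicates. Both Max probe sets carry the suffix for probes shared within a gene family, so related transcripts could add to their signal. The probe sets of Mxd1, Mxi1 and Myc carry another suffix, _s, and whether they read further transcripts was not tested. Scaling to the bacterial control probes put the B ratio at 0.04 and the A ratio at -0.18. Max is at chr12:76937269-76962323, and closest to it on B were Vcp, an ATPase that unfolds ubiquitinated proteins, Cct2, a chaperonin subunit, and Icam2, an adhesion molecule, at 0.06, 0.11 and 0.11 log2 units over 2 arrays.

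Myc was at background. Its probe set on A read 618 in deficient cells, against 1092 in wild-type cells, and the wild-type reading was 1.05 times the floor. The bound was at least 1.05-fold lower in deficient cells (log2 -0.08), so no difference in level could be given. Of 526 other probe sets of A with a like wild-type signal, 250 were at or below the floor in deficient cells. Taking the floor at the 30th percentile gave a log2 ratio of -0.82 from the same readings, and at the 70th percentile Myc was below the floor in both genotypes. Myc lies at chr15:61985341-61990361. Capn10, Mptx1 and Retsat had the same pair of values on A once readings below the floor were set to it (wild-type 1092 in each).

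Read against the whole arrays, 1 of the 2 member probe sets on B was lower by 2-fold or more and 0 were higher, where 4.96% of the 3586 probe sets of B with a ratio or bound were lower and 6.55% higher. On A, 0 of the 3 member probe sets passed 2-fold in either direction, against 4.05% lower and 3.30% higher among 3580. Since Mxd1 was chosen on this contrast, nothing is read from its count.

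**Figure D2:**
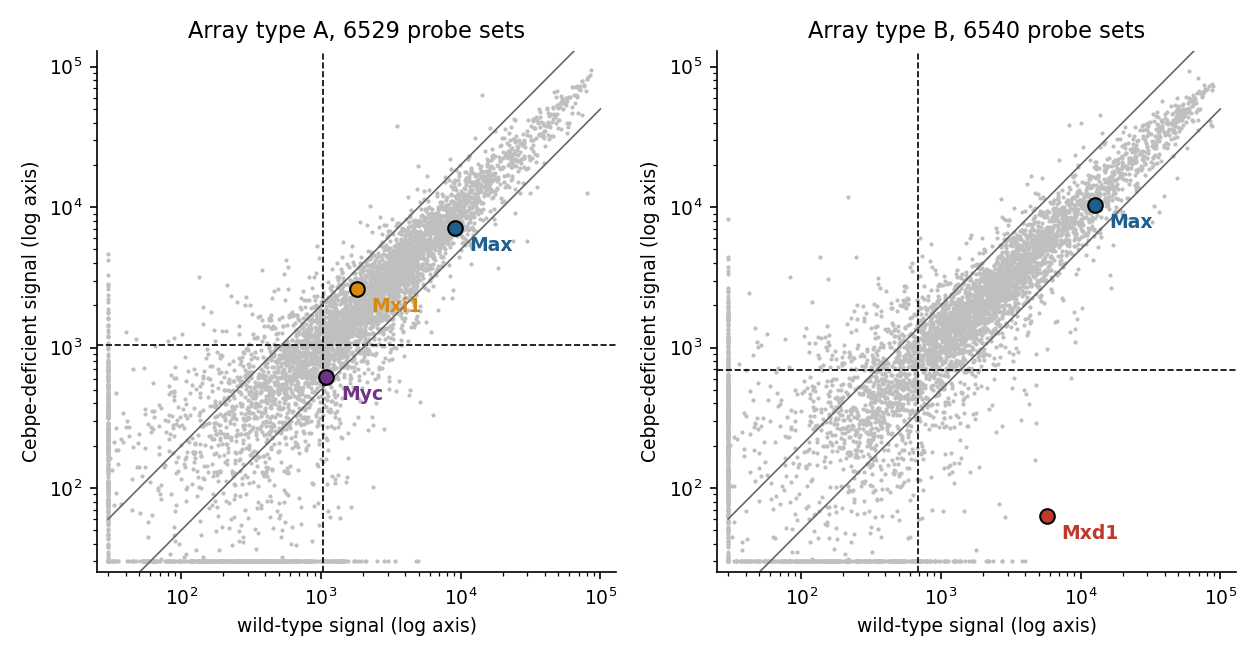
Deficient against wild-type signal of every probe set of array types A and B on log axes, with signals below 30 drawn at 30; solid lines mark 2-fold in each direction and dashed lines the floor. Mxd1 sits below the cloud on B with its deficient signal of 63 under the floor, Max and Mxi1 lie within the 2-fold lines, and Myc lies at the crossing of the floors on A.

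Few genes of the wider network of partners and cofactors could be measured, and their ratios went both ways around a median near that of all genes. Of 27 listed genes 16 had a named probe set, and 7 of these had a ratio, 4 below 0 and 3 above, with a median log2 ratio of -0.02 against 0.01 over all 3131 genes with a ratio. Mnt, another MAX-binding repressor, read 2015 in deficient and 2047 in wild-type cells (-0.02). Mlx, the MAX-like partner of a parallel branch, read 2270 in deficient and 3252 in wild-type cells (-0.52). Sin3a, the corepressor that MXD1 and MXI1 bind, read 1524 in deficient and 1063 in wild-type cells (0.52), its wild-type reading just above the floor. The lowest ratio was that of Kat2a, a histone acetyltransferase brought in by MYC, at -0.72. Mycl, a MYC relative, had a deficient level only (log2 bound 0.65), so its difference may be larger than that. Of these 8 with a ratio or bound, 0 were lower by 2-fold or more and 0 higher by the value given, where 4.56% of all 3749 such genes were lower and 4.16% higher. Taking the 30th percentile as floor, 1 gene of the list was lower. Mxd3, Mxd4, Mycn, Sin3b, Hdac1, Hdac2, Sap30 and Zbtb17 were below the floor in both genotypes, so 2 further MXD genes gave no reading to set beside Mxd1.

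Genes that control Myc itself also had a median close to that of all genes, with single ratios on both sides. Of 21 listed 14 had a named probe set and 10 a ratio, 7 below 0 and 3 above (median -0.03). Gsk3a, a kinase related to the one that marks MYC for destruction, was at least 2.12-fold lower in deficient cells, with 341 in deficient and 1464 in wild-type cells. Pim1, a kinase gene induced by cytokines, was the lowest ratio at -0.77, with 14869 in deficient and 25390 in wild-type cells. Mycbp2, a ubiquitin ligase that binds MYC, was the highest at 0.96, with 4060 in deficient and 2089 in wild-type cells.

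Genes that MYC is known to raise were mostly lower in deficient cells, although Myc itself was not measurable. Of 39 listed genes 30 had a named probe set and 18 a ratio, of which 17 were below 0 and 1 above. Over all genes with a ratio, 49.0% were below 0. Their median log2 ratio was -0.64, against 0.01 for all genes, and with 5 bounded genes it was -0.55. On A alone the median was -0.56 with 8 of 9 below 0, and on B alone -0.64 with 12 of 12. These splits share genes that have probe sets on both types, so they are not separate support. The list was drawn up with earlier results of these data known, so its counts are a description. Of 23 with a ratio or bound, 3 were lower by 2-fold or more and 0 higher, where 4.56% of all 3749 such genes were lower and 4.16% higher. Most of its ratios were below 0 yet smaller than 2-fold. After scaling to the bacterial control probes, which put the median of all genes at 0.21, 13 of the 18 were below 0 and the list median was -0.31.

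By function, the lowest was Eif5a, a translation factor that needs polyamines, with 8424 in deficient and 21247 in wild-type cells (-1.33), while its second probe set, on A, was below the floor in both. The probe sets of Eif4a1, the helicase of translation initiation, gave -0.83 and -0.56, and those of Srm, which makes the polyamine spermidine, gave -0.77 and -0.93. Slc2a1, a glucose transporter, was 2.38-fold lower, with 1612 in deficient and 3831 in wild-type cells, and the glycolytic genes Ldha, Pkm and Hk2 stood at -0.42, -0.28 and -0.05. The mitochondrial chaperonin genes Hspe1 and Hspd1 stood at -1.10 and -0.92. Hspe1 read 1706 in deficient and 3648 in wild-type cells, and Hspd1 11579 in deficient and 21960 in wild-type cells. Among nucleolar genes Fbl and Ncl were at -0.65 and -0.55, and Nolc1 had a wild-type level only (log2 bound -0.83). Pa2g4, a growth regulator of the nucleolus, had 3 probe sets at -0.90, -0.70 and -0.35. Cdk4, the kinase of the G1 step, stood at -0.68 and Odc1, the first enzyme of polyamine synthesis, at -0.35. Nme1, a nucleoside diphosphate kinase, was the 1 gene with a ratio above 0, at 0.33. Besides Nolc1, Cdc25a and Tfam had a wild-type level only, with log2 bounds of -0.20 and -0.14. Shmt2 and Tfrc went the other way, with a deficient level only and log2 bounds of 0.03 and 0.07. Bop1, Cad, Ccnd2, Eif4e, Gart, Nop56 and Shmt1 were below the floor in both genotypes.

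Genes that MYC is known to lower were also more often below 0 than above it. Of 14 listed 12 had a named probe set and 7 a ratio, 5 below 0 and 2 above, with a median of -0.18. Over all genes with a ratio, 49.0% were below 0. Of 9 with a ratio or bound, 0 were lower by 2-fold or more and 0 higher. The shares of all 3749 such genes were 4.56% lower and 4.16% higher, so little can be read from these few genes. With bacterial control scaling the median was 0.15 and 3 of 7 were below 0. Their ratios ran from -0.33 for Gadd45b, a stress sensor, to 0.18 for Btg1, an inhibitor of proliferation, whose other probe set, on A, stood at -0.39. The cell cycle inhibitor Cdkn1a gave -0.18 on B and -0.51 on A, Cdkn1b at 0.09 and Cebpa at -0.07.

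Regulators of the G1 to S step and of cell cycle exit went both ways. Of 13 with a named probe set 9 had a ratio, 5 below 0 and 4 above (median -0.14). Of 10 with a ratio or bound, 3 were lower by 2-fold or more and 2 higher, against 4.56% and 4.16% of all genes. The lower ones were Ccne1, cyclin E1, with 1494 in deficient and 4343 in wild-type cells (-1.54), Ccnd1, cyclin D1, with 3761 in deficient and 7533 in wild-type cells (2.00-fold lower), and Id1, an inhibitor of helix-loop-helix factors, at least 2.61-fold lower. The probe sets of Id1 and Id2 on A gave no level. The higher ones were Cdk2, the kinase partner of cyclin E, with 2838 in deficient and 1341 in wild-type cells (1.08), and Id2, a relative of Id1, with 19281 in deficient and 9609 in wild-type cells (2.01-fold higher). The retinoblastoma gene Rb1 stood at 0.61 and E2f1, a factor that retinoblastoma protein holds back, at -0.74. The median was 0.50 on A alone and -0.58 on B alone, so the list had no common direction.

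**Figure D3:**
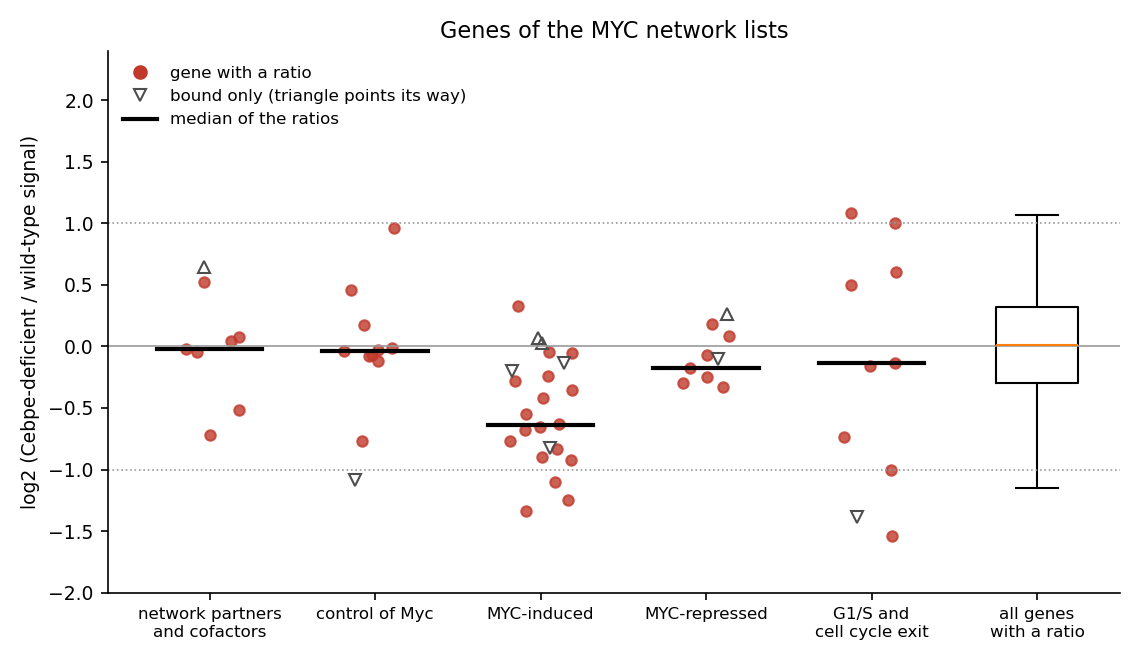
Log2 ratio of deficient over wild-type signal for the genes of 5 lists (red points; open triangles are bounds, black bars the medians of the ratios) beside all 3131 genes with a ratio (box, quartiles; whiskers, the middle 95% of genes). The MYC-induced genes centre on -0.64 and the other lists between -0.18 and -0.02, with dotted lines at 2-fold.

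MXD1 is made by maturing granulocytes, so cell type markers are given beside it. Fewer cells of a type and less RNA per cell cannot be told apart from the array signal of such bulk samples. By the labels, counts of 100 to 200 cells gave about 60% neutrophils and 30% monocytes in both genotypes. Of 17 neutrophil markers 14 had a named probe set and 11 a ratio, 9 of them below 0 (median -0.51). Of 13 with a ratio or bound 5 were lower by 2-fold or more, against 4.56% of all genes. These were Il1r2 at -2.40, the granule gene Ngp at -1.57, the surface marker Ly6g at -1.44, the G-CSF receptor gene Csf3r at -1.31 and the chemokine receptor gene Cxcr2 with a log2 bound of -1.03. The 2 ratios above 0 were those of the granule genes Mpo at 0.36 and Elane at 0.11. S100a9 stood at -0.24, and Ltf had a log2 bound of only -0.07. The summed signal above 0 of all 14 neutrophil markers was 106851 in deficient and 137965 in wild-type cells on A, and 99865 in deficient and 130318 in wild-type cells on B. The 3 brightest were S100a8, Itgb2 and Lcn2. S100a8 read 62884 in deficient and 66439 in wild-type cells, and Lcn2 27660 in deficient and 39471 in wild-type cells. Itgb2, which is not specific to neutrophils, read 56643 in deficient and 62813 in wild-type cells, much of the summed signal on B. The granule gene Camp gave no level in either genotype. Macrophage markers had 7 of 12 ratios below 0 (median -0.47), with summed signals of 132355 in deficient and 136516 in wild-type cells on A and 277347 in deficient and 290539 in wild-type cells on B. Of 13 with a ratio or bound, 2 were lower by 2-fold or more, Mrc1 at -2.30 and Cd14 at -1.03, against 4.56% of all genes. Apoe was the 1 higher, at 2.22 on B and 3.43 on A, against 4.16% of all genes. The 3 brightest macrophage markers were Mpeg1 at 0.67, Cd14 at -1.03 and Lyz2 at -0.43 on the log2 scale. B cell markers had 3 of 6 ratios below 0 (median 0.07), with 2 more bounded. Of 8 T and NK cell markers 5, Cd3d, Cd3g, Cd4, Cd8a and Klrb1c, gave no level in either genotype. Gzma stood at -0.66, Cd3e had a wild-type level only (921 in deficient and 1901 in wild-type cells) and Cd2 a deficient level only (748 in deficient and 144 in wild-type cells). Of 4 erythroid markers with a ratio or bound, 2 were lower by 2-fold or more, against 4.56% of all genes. They were Alas2, with 539 in deficient and 4773 in wild-type cells (log2 bound -2.79), and Hbb-b2, with 16041 in deficient and 49272 in wild-type cells. The other globin gene, Hba-a1, read 50400 in deficient and 49052 in wild-type cells, and Klf1 stood at -0.43. Stromal markers had 4 of 4 ratios below 0 (median -0.85, or -0.19 with the 1 bounded gene). Eosinophil and mast cell markers had 3 of 3 below 0 (median -0.57, or -0.36 with 2 bounded genes), from -1.92 for the eotaxin receptor gene Ccr3 to -0.14 for Tpsb2, and Epx and Prg2 gave no level. The part of any of these in the Mxd1 reading or in the lower MYC-induced genes was not tested.

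**Figure D4:**
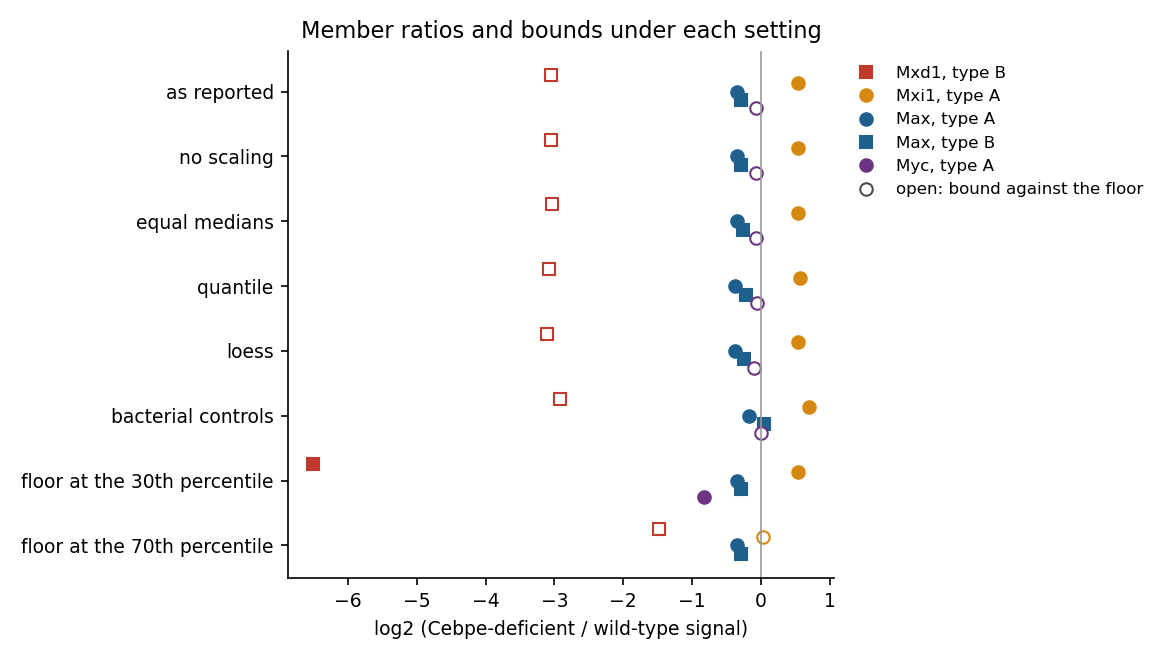
Log2 ratio (filled) or bound against the floor (open) of each member probe set under the reported setting and 7 others; circles are array type A and squares type B. Mxd1 lies between -6.51 and -1.49 in all 8 rows, Mxi1 above 0, Max on B crosses 0 with bacterial control scaling, and Myc has no value with the floor at the 70th percentile.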

How the data were processed

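The data are 4 one-colour arrays of total RNA. The deposited values are linear intensities, 1 whole number per probe set, with 20.6% to 29.3% of them below 0. How the authors corrected and scaled them is not given in the sources available, and neither scanner files nor detection calls were used here. Sample titles gave the groups. Gene names came from the platform annotation, updated by gene ID through the RefSeq table on GRCm38.p6.

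For each type, both arrays were brought to the same mean signal, controls left out and 2% trimmed at either end, which changed values by under 1 part in 100. A log2 ratio, deficient over wild-type, was formed if both readings exceeded the floor, and a bound against the floor if 1 did. Where a gene had more probe sets, its ratio is that of the brightest measured one relative to the floor. No test is possible with 1 array per genotype and type, so there are no p-values. The code for scaling and ratios was checked on simulated arrays with known folds in probe sets well above the floor. That check did not cover bounds or bacterial control scaling.

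The members and gene lists were chosen with earlier results of these data known. By rule the text names all member probe sets, the 3 genes nearest each member and the 3 brightest neutrophil and macrophage markers. For each list other than the cell type markers it also names the genes past 2-fold and the highest and lowest ratio. Other list and marker genes were named with their values in view, and not every marker past 2-fold is named. Recomputed settings were unscaled values, equal array medians, quantile and loess normalization (span 0.3), bacterial control scaling, the 30th and 70th percentile as floor, 3-fold, means in place of medians or of the brightest probe set, and leaving out probe sets with a family, _g, _r or _i suffix. Array types taken singly were added after seeing the data. Python 3.11.15, numpy 2.4.6, pandas 2.3.3, statsmodels 0.14.6 and matplotlib 3.10.9 were used.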

Additional observations from a re-analysis of the deposited data

How the results depend on the processing

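Of 36 recomputed member values, 32 moved by less than the measurement error. The 4 others follow from the floor: -6.51 (30th percentile) and -1.49 (70th) for Mxd1, 0.037 (70th) for Mxi1 and -0.82 (30th) for Myc, which had no value at the 70th percentile. Bacterial control scaling moved the median of all genes to 0.21. Under it the list medians were 0.18 for network partners, 0.28 for control of Myc, -0.31 for MYC-induced genes, 0.15 for MYC-repressed genes, which changed sign, and 0.17 for cell cycle exit. Relative to all genes under that scaling, MYC-induced genes stood at -0.52 and MYC-repressed ones at -0.06. Over the other alternatives run, the MYC-induced median lay between -0.65 and -0.55. The cell cycle exit median was 0.18 without family, _g, _r and _i probe sets, 0.50 on A alone and -0.58 on B alone. Genes lower by 2-fold or more numbered 171, and 503 and 60 with the floor at the 30th and 70th percentile or 49 at 3-fold. Genes higher numbered 156, and 463 and 53 with those floors, 38 at 3-fold and 274 with bacterial control scaling. The causes were not tested. Signal near the floor limits Myc and the deficient reading of Mxd1.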
